A study of Rattus norvegicus with 3 samples.

Results

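The baseline transcriptome of FRSK cells, a keratinocyte line from the skin of the fetal rat, was described from the array of the unstimulated culture, 1 of the 3 arrays of the series. Its members were all transcript clusters with 1 platform gene symbol, which stood for 15037 genes. Unstimulated cells had received no peptide. The other 2 cultures had received Met-ENK or β-END(1-9), each at 100 nM for 24 h, and no comparison between treatments is made here. All 3 cultures were FRSK cells kept in DMEM with 10% FBS at 37 °C and 5% CO2 and plated at 1000000 cells per 10 cm dish. The sources used here give no genotype, passage or clonality of the line, and for the control neither a vehicle nor a time. With 1 array there is no replicate, so no value has an error and no test was run.

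The epidermis is renewed from basal keratinocytes, which divide while attached to the basement membrane through integrins and hemidesmosomes. Basal cells make the keratins Krt5 and Krt14 under the transcription factor p63 and are joined by desmosomes and E- and P-cadherin. Cells that leave the basal layer switch to the keratins Krt1 and Krt10 and then build the cornified envelope.

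Signals on the control array ran from 2.15 to 19.93 (log2), with a median of 6.44 over the 15037 genes. Whole-transcript arrays read RNA through many probes a gene, and the signal of a gene also depends on how well its probes bind. The ranks given here therefore order signals and do not order transcript numbers between genes. A gene was called above background when its signal exceeded 7.57, the highest of the 23 background probe sets of the same array. Of these sets 22 had the same value on all 3 arrays, the highest included, as had 3658 of the 23188 transcript clusters. The limit was therefore the same on each array, and agreement between arrays is partly set by the deposited values. By this rule 6363 genes (42.3%) were above background, with a median of 10.39, and 8674 were not. At 16 or more lay 133 genes, at 12 or more 1597 and at 10 or more 3673. The genes just inside the limit were Plekhg2 (7.5672), Kifc1 (7.57108) and Coch (7.57194), and those just outside were Atp13a2 (7.56668), Per2 (7.56643) and C5h1orf122 (7.56625), with no gap between them.

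Sensory receptor genes showed how rarely the limit was passed by genes of other tissues. Of 1055 olfactory receptor genes, 1 lay above it, Or4x13 at 7.85, and their median was 3.96. None of the 98 vomeronasal receptor genes (0) and none of the 34 taste receptor genes (0) did. The background probe sets formed a trough by the number that follows GC in their names. The sets with numbers from 8 to 18 lay between 2.51 and 4.51, and the highest value belonged to number 3. The limit lay above all but the highest set, and a gene under it cannot be called silent. Probe sets named as negative controls behaved otherwise: 299 of 1153 (25.9%) were above the limit, their 95th percentile was 10.08, and 3562 genes lay above that value. Of the 6363 genes, 6143 were also above 7.57 on both peptide arrays, and the 220 that were not had a median of 7.75 and reached at most 8.78 on the control array.

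**Figure D1:**
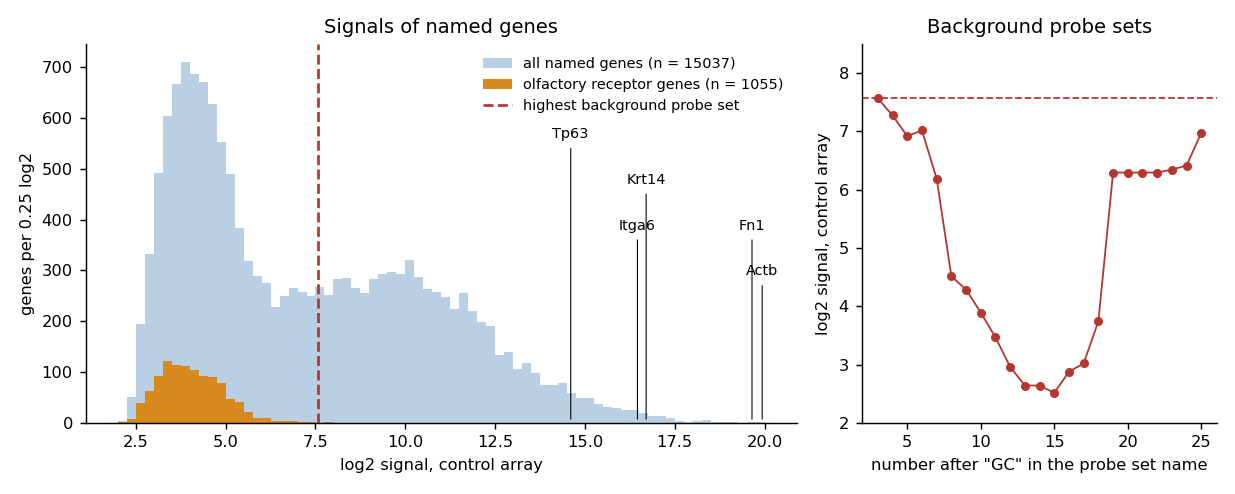
The left panel plots the number of genes by log2 signal on the control array for the 15037 named genes, with the 1055 olfactory receptor genes drawn over them, the limit of 7.57 as a dashed line and lines to 5 genes. The right panel plots the log2 signal of the 23 background probe sets against the number in their names, with the limit dashed. The olfactory receptor genes lie in the low mode, and the background sets reach 7.57 only at the left end of the trough.

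The highest signals came from genes of the actin cytoskeleton, translation, chromatin and extracellular matrix. Actb, cytoplasmic actin, was first at 19.93, followed by the elongation factor Eef1a1 (19.71) and by fibronectin, Fn1 (19.65). Actb had the same 19.93 on all 3 arrays, and Eef1a1 the same 19.71. The highest cluster without a gene symbol also had 19.93 on the control array, so Actb was first among named genes only. The actin-sequestering peptide Tmsb10 had 18.70, the tropomyosin Tpm1 17.40, profilin (Pfn1) 17.30, the crosslinker Actn4 17.24 and the Arp2/3 subunit Actr2 17.23. Rhoa (17.35) and Rac1 (17.20) encode GTPases that organise actin. Of 33 measured genes of the actin cytoskeleton, 32 (97%) were above background, against 42.3% of all genes, with Myl9 (6.96) below the limit.

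Ribosomal protein genes supplied 10 of the 40 highest genes and 26 of the highest 100. They were led by Rps29 (18.97), Rpl31 (18.41), Rplp1 (18.31), Rpl21 (18.19), Rps2 (18.03) and Rpl39 (17.84), with Rpl4 at 17.60, Rps21 at 17.47, Rpl7 at 17.33 and Rpl17 at 17.25. Of 74 measured genes with such a symbol, 70 were above background (94.6%, against 42.3% of all genes). The other 4, Rps12l4 (6.06), Rpl27l2 (5.58), Rpl39l1 (4.75) and Rpl3l (4.41), carry the names of ribosomal protein-like copies. Elongation factor Eef2 reached 18.50, and 19 of 19 measured translation factor genes were above background.

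Histone genes also stood near the top, with Hist2h3c2 at 19.22, H4c14 at 18.46 and Hist1h4m at 18.12. Histone genes of 1 class have nearly identical coding sequences, so the signal of a single copy is uncertain, and the same holds for Actb beside Actg1 and for ribosomal genes with processed copies. Chaperones followed with Hspa8 (18.80), Hsp90ab1 (18.38), the cyclophilin Ppia (17.68) and the disulfide isomerase Pdia3 (17.45). Tubb5, a β-tubulin, had 18.34, the desaturase Scd2 17.88, the calcium-binding protein S100a11 17.67, the endoplasmic reticulum lectin Mlec 17.62, the growth regulator Pa2g4 17.49, prothymosin (Ptma) 17.22 and Myadm 17.20. Of the 40 highest genes, all stayed within the first 54 ranks on each of the 3 arrays.

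The first 40 also held Perp (17.45), a desmosomal membrane protein and known p63 target, plakoglobin (Jup, 17.18), the integrin Itgb1 (17.16), thrombospondin-1 (Thbs1, 18.60) and the inducible cyclooxygenase Ptgs2 (17.28). Ptgs2 is usually known as a gene of inflammation and wounding.

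Nearly every measured gene in a list of keratinocyte identity was above background. The basal keratin Krt14 had a signal of 16.70 (rank 66 of 15037), the hemidesmosomal integrin Itga6 16.46 (rank 86) and the epidermal master regulator Tp63 14.60 (rank 363). All 3 markers of the labelled cell type thus lay far above 7.57. Of 27 measured genes of keratinocyte identity, 26 (96.3%) were above background, against 42.3% of all genes, and their median was 12.95 against 6.44. The exception was Ly6d (4.05), a surface antigen of stratified epithelium. The other 14 listed genes, among them Krt5 and Col17a1, were not analysed here. Members of the list were chosen with earlier results of these data known, so its share is a description and tests nothing.

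Structural members of this list were high. Laminin-332 is the basement membrane ligand of these cells, and its β chain gene Lamb3 had 15.37. Its partner in hemidesmosomes, the integrin gene Itgb4, had 13.69. The anchoring filament protein Lad1 had 12.39 and Fermt1, which activates integrins, 11.29. The desmosomal cadherins Dsc3 (15.30) and Dsg3 (13.77), both of basal layers, and P-cadherin (Cdh3, 14.41) were present too. Regulators of the list comprised Klf5 (12.95), Grhl2 (11.67), Bnc1 (10.41), Bcl11b (9.16) and Ovol1 (8.39), and the epithelial splicing regulators Esrp1 (13.58) and Esrp2 (11.04). Trim29 had 13.26, Mpzl2 13.02, the serpin Serpinb5 12.73, Pkp3 10.24, the keratinocyte growth factor receptor gene Fgfr2 9.75 and the giant cadherin Fat2 9.40.

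Of 39 measured keratin genes, 4 were above background (10.3%, against 42.3% of all genes). Besides Krt14 these were Krt17 (14.37), a keratin of wounded skin and appendages, Krt15 (12.80), a basal keratin, and Krt80 (11.61). The highest of the remaining 35 was Krt90 at 7.26. The simple epithelial keratins Krt8 (6.39), Krt18 (4.99), Krt7 (4.81) and Krt19 (3.51) and the differentiation keratins Krt2 (5.96) and Krt1 (5.77) were not above it. Krt5, Krt10, Krt6a and Krt16 were not analysed here.

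Genes of the suprabasal layers were mostly not above background. Of 30 measured genes, 8 (26.7%) were above it, against 42.3% of all genes, with a list median of 5.67. Another 21 listed genes, among them Flg, Krt10, Dsg1 and Cdsn, were not analysed here. Those above were the envelope plakins Ppl (13.61) and Evpl (9.15), the kallikrein Klk10 (13.43), the protease inhibitor Cst6 (13.23), Krt80, the crosslinking enzyme Tgm1 (10.65), the Notch target Hes1 (10.16) and the ceramide synthase Cers3 (9.29). Involucrin (Ivl, 5.11), Sprr1a (6.12), Sprr3 (3.19), Tgm3 (5.48), Casp14 (4.39), Sbsn (5.31), Dmkn (5.12) and the barrier lipoxygenases Aloxe3 (6.29) and Alox12b (3.67) stayed under the limit. The hair follicle list had 2 of 22 members above background, Gata3 (11.23) and Foxn1 (8.56). Its hair keratins (Krt25, Krt27, Krt28, Krt71 to Krt73, Krt75, Krt81, Krt85, Krt86 and Krt35) lay between 3.23 and 6.29, and Lgr5 (3.53) and Shh (2.97) were low.

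**Figure D2:**
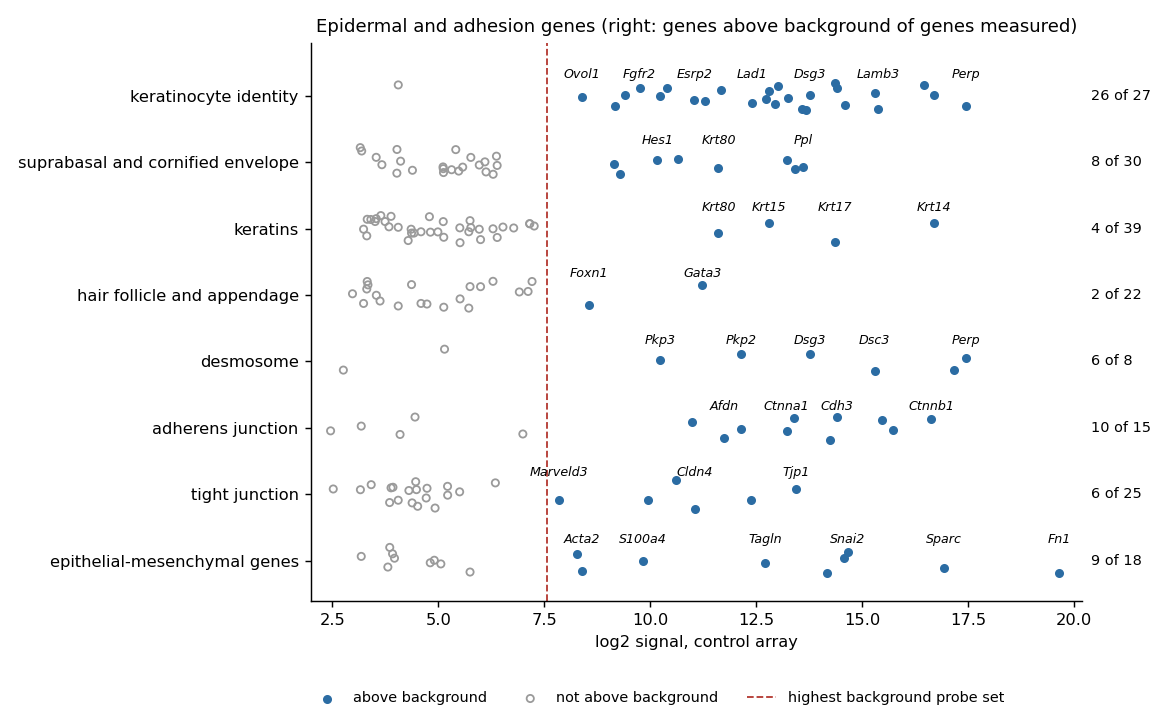
Each point is 1 gene, plotted by its log2 signal on the control array, in rows for 8 gene groups. Filled points lie above the highest background probe set (dashed line, 7.57), open points do not, some of the former are named, and the counts stand at the right. Of the 27 identity genes 26 are filled, against 8 of 30 suprabasal genes and 4 of 39 keratins.

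Cell-cell adhesion genes were above background for desmosomes in 6 of 8 cases and for adherens junctions in 10 of 15, against 42.3% of all genes. Perp and Jup were the highest desmosomal genes, and of the measured plakophilins Pkp2 had 12.14 and Pkp3 10.24. Dsp, Pkp1, Pkp4, Dsg1 and Dsg2 were not analysed here. Dsc2 (5.14) and the hair desmoglein Dsg4 (2.76) were not above the limit. β-catenin (Ctnnb1) had 16.63, p120-catenin (Ctnnd1) 15.73, E-cadherin (Cdh1) 15.48, vinculin (Vcl) 14.24 and Cdh13 13.39, whereas N-cadherin (Cdh2, 3.18) and Cdh11 (4.09), cadherins of mesenchyme, and the neural Ctnna2 (2.45) were low. Tight junctions seal the upper living layers of skin, and 6 of their 25 measured genes were above background: Tjp1 (13.43), F11r (12.37), Cldn4 (11.06), Ocln (10.60), Cldn12 (9.94) and Marveld3 (7.84). Cldn1, the main claudin of epidermis, had 3.93. Of 13 connexins, Gja1 (15.18), Gja5 (9.69) and Gjb5 (7.95) passed, while Gjb2 (2.67) and Gjb6 (5.33) did not.

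Of 18 measured integrin genes 6 (33.3%) were above background, against 42.3% of all genes, namely Itgb1, Itga6, Itgb4, Itgb6 (12.88), Itgb5 (9.85) and Itga5 (9.62), the fibronectin-binding partner of Itgb1. Integrins of leukocytes such as Itgb2 (6.49), Itgal (3.68) and Itgam (2.68) were not, and Itga3, a laminin receptor of keratinocytes, was not analysed here. Of 6 laminin genes, Lamb3, Lamc1 (12.55), Lama5 (11.38) and Lamb2 (9.01) passed. The hyaluronan receptor Cd44 had 16.33, the tetraspanins Cd63 15.52, Cd151 15.38 and Cd9 14.71, the syndecan Sdc1 15.41 and dystroglycan (Dag1) 14.67, in a list with 21 of 31 members above background. Collagen genes passed in 5 of 20 cases, with Col5a1 (10.35), Col18a1 (9.49), Col3a1 (8.53), Col1a1 (8.28) and Col11a2 (7.82).

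Genes tied to epithelial-mesenchymal change were above background in 9 of 18 cases, a share near the 42.3% of all genes, with tenascin (Tnc) among them. After Fn1, the matricellular gene Sparc had 16.94, the repressor Snai2, also known in basal keratinocytes, 14.66, vimentin (Vim) 14.57, Tagln 12.71, S100a4 9.83, Acta2 8.39 and Col1a1 8.28. The regulators Snai1 (3.92), Twist1 (3.85), Twist2 (3.81), Zeb2 (4.81) and Prrx1 (5.75) were not above the limit. Signals of 1 bulk array cannot tell few cells with much RNA of a gene from many cells with little.

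Receptor genes were above background in 88 of 291 cases (30.2%), against 42.3% of all genes. Among 46 receptor tyrosine kinases 17 passed, led by Ryk (14.31), a Wnt receptor, the ephrin receptor Epha7 (13.58), Axl (13.41), the hepatocyte growth factor receptor Met (13.12), Igf1r (12.995) and Epha2 (11.37). Egfr, the main growth receptor of keratinocytes, had 10.20, Erbb2 9.47 and Erbb3 8.54, while Erbb4 (2.75), Kit (4.62), Pdgfra (4.30), Pdgfrb (4.61) and Kdr (4.41), receptors of other lineages, did not pass. TGF-β and BMP receptors passed in 7 of 14 cases with Bmpr2 (14.02), Tgfbr1 (11.15), Bmpr1a (10.53), Acvr1 (8.62), Tgfbr3 (7.89) and Acvr2a (7.88) in front. Of the 19 Wnt, Notch and Hedgehog receptors 10 passed, with the R-spondin receptor Lgr4 at 14.88, Fzd6 at 13.18, Fzd2 at 12.98, Notch1 at 12.002, Lrp6 at 11.18 and Fzd1 at 10.81. Notch3 (6.39) did not.

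Cytokine and death receptors passed in 16 of 52 cases (30.8%, against 42.3% of all genes). Tnfrsf12a, the receptor for TWEAK, had 14.44, the shared chain Il6st 12.65, the interleukin-36 receptor Il1rl2 11.78, Ifngr1 11.31, Tnfrsf1a 11.23 and the oncostatin M receptor Osmr 11.15. G protein-coupled receptors for lipids, nucleotides, proteases and peptides passed in 9 of 80 cases (11.2%). The thrombin receptor F2r (12.40), Gprc5a (11.80), the nucleotide receptor P2ry2 (10.70), the protease receptor F2rl1 (10.49), Lpar6 (10.05) and Ackr3 (9.16) were the highest. The opioid receptor genes Oprd1 (5.70), Oprl1 (4.07), Oprk1 (3.70) and Oprm1 (2.63) were not above the limit. Tlr4 (10.69) was the only member above it among 12 Toll-like receptors. Of 40 nuclear receptors 14 passed, led by Nr2f2 (13.60), Rxra (11.98), Nr2c1 (11.84), Nr1d1 (11.19), Thra (10.78) and Ppard (10.53). The glucocorticoid receptor Nr3c1 had 10.00 and the vitamin D receptor Vdr 9.26.

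Guidance receptors passed in 3 of 12 cases (25%, against 42.3% of all genes), Nrp2 (13.74), Robo1 (9.82) and Plxna2 (8.03). In a list of uptake and other surface receptors 11 of 16 passed (68.8%). The transferrin receptor Tfrc had 15.94, tissue factor (F3) 13.41, Igf2r 13.07, Scarb2 12.75, M6pr 12.14 and the urokinase receptor Plaur 10.71.

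Secreted factors were above background in 84 of 319 cases (26.3%), against 42.3% of all genes, and a few of them had very high signals. Growth factors passed in 16 of 40 cases (40%), near the share of all genes. Vegfa, which acts on vessels, had 16.14, Hdgf 15.96, the EGF receptor ligands Ereg 14.25 and Tgfa 13.35, the Erbb3 ligand Nrg1 13.81 and Grn 13.51. Further EGF receptor ligands were Hbegf (11.93) and Areg (10.07). In the list of TGF-β superfamily ligands 6 of 27 genes passed, a count that includes Bmp1, a protease and not a ligand. The activin subunit Inhba had 16.56 (rank 75), and its secreted antagonist follistatin (Fst) 14.93 (rank 292). Tgfb1 had 12.05, Bmp7 11.43, the protease gene Bmp1 11.17, Tgfb2 10.52 and Inhbb 9.99. Fst and Fstl3 (9.12) were the 2 of 19 measured Wnt, BMP and Hedgehog antagonists above the limit, and Dkk1 (2.55) and Nog (6.75) were under it. Of 17 Wnt ligands Wnt10a (9.93), Wnt4 (8.58) and Wnt5a (8.003) passed, and of 21 fibroblast growth factors Fgf22 (8.03).

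Matrix and protease genes followed. Of 38 matrix glycoproteins 17 passed (44.7%, near the 42.3% of all genes). Fn1, Thbs1 and Sparc were followed by biglycan (Bgn, 16.54), agrin (Agrn, 15.20) and Tnc. Stromelysin-1 (Mmp3) had 16.32, at rank 100, in a list with 8 of 25 members above background that also held Timp2 (13.94), Mmp9 (11.23), Timp1 (10.57), Mmp14 (10.24) and Mmp28 (9.90). In the list of plasminogen system, serpin and protease inhibitor genes 10 of 21 passed. The collagen chaperone Serpinh1 (14.80), Cst6, Serpinb2 (12.80), Serpinb5, Spint2 (11.96) and Cst3 (11.39) led them, and urokinase (Plau) had 10.68. Igfbp7 (13.42), Ccn4 (13.30), Ccn1 (12.43), Igfbp3 (9.78) and Igfbp2 (7.79) passed among 13 IGF-binding and CCN genes.

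Chemokine genes passed in 17.1% and interleukin and cytokine genes in 18% of cases, against 42.3% of all genes and 26.3% of secreted factors. Wnt ligands, with 17.6%, had a like share. Of 35 chemokine genes 6 passed: Ccl2 (13.28), which attracts monocytes, the neutrophil chemokine Cxcl1 (12.88), Cxcl16 (12.69), Cxcl6 (8.05), Cxcl10 (7.99) and Cxcl2 (7.85). Of 50 interleukin and cytokine genes 9 passed, the antagonist Il1rn (12.41) first, then Il24 (11.72), Lif (10.31), Mif (9.64), Il1a (9.38) and Il36g (9.10), an epithelial member of the interleukin-1 family. Tnf (6.15) did not. Among 14 antimicrobial and alarm genes Lcn2 (11.08) passed.

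**Figure D3:**
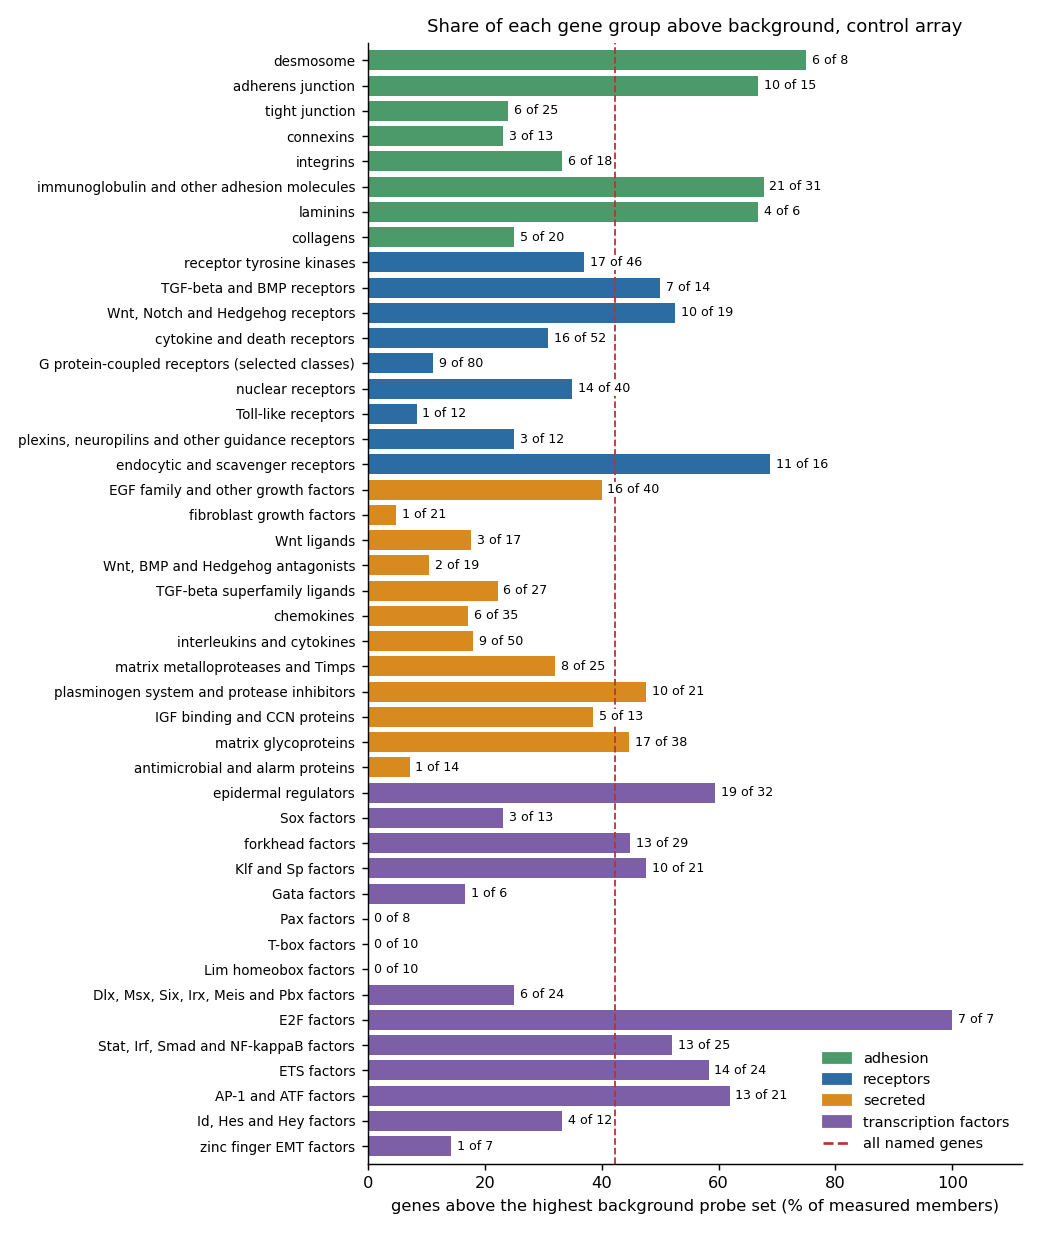
Bars give the share of measured members, in percent, that lay above the highest background probe set on the control array for gene groups of adhesion, receptors, secreted factors and transcription factors, with counts at the bar ends. The dashed line is the share over all named genes, 42.3%. Desmosomes reach 6 of 8 and E2F factors 7 of 7, whereas fibroblast growth factors have 1 of 21 and Pax factors 0 of 8.

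Transcription factors of the lists were above background in 98 of 260 cases (37.7%), near the 42.3% of all genes. Forkhead genes (44.8%) and Klf and Sp factors (47.6%) also lay near that share. Of 32 epidermal regulators 19 passed. Tp63 was followed by Id1 (14.19), Myc (13.73), Klf5, the Hippo pathway partner Tead1 (12.76) and Tfap2a (12.48), an early factor of surface ectoderm. The p63 relative Tp73 had 10.25 and Klf4, a factor of barrier formation, 8.40. Among 29 forkhead genes 13 passed, led by Foxk1 (13.18), Foxk2 (13.11), Foxj3 (12.72), Foxp1 (12.23), Foxc1 (11.36) and Foxq1 (10.84). Klf and Sp factors passed in 10 of 21 cases (after Klf5, Klf6 had 12.78, Sp1 11.41, Klf3 10.54, Klf10 10.17 and Klf12 10.10). ETS factors passed in 14 of 24, with Elk3 (13.75), Ets2 (13.52), Elf1 (12.38), Gabpa (12.25), Ets1 (12.25) and Etv3 (10.75) first. AP-1 and ATF factors passed in 13 of 21, with Atf4 at 14.67, Atf2 at 13.51, Fosl2 at 12.96, Junb at 11.88, Atf1 at 11.83 and Mafk at 11.70, and Fos (4.78) did not.

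Signal transducers of the nucleus passed in 13 of 25 cases (52%, against 42.3% of all genes). Stat3 (13.47), Rela (12.92), Smad4 (12.38), Smad5 (11.73), Smad1 (11.47) and Stat6 (11.36) were the highest. All 7 measured E2F and partner genes passed, 6 of them on all 3 arrays, from E2f1 (8.02) to Tfdp1 (10.44), as factors of S phase entry. Gata3 was the 1 of 6 Gata genes above the limit. Of 13 Sox genes Sox4 (12.46), Sox12 (8.23) and Sox2 (7.97) passed, but Sox2 was not above the limit on all 3 arrays. The same held for members of other lists. Of the 9 G protein-coupled receptors that passed 7 did so on all 3 arrays, and of the 6 chemokines 5. Snai2 was the 1 of 7 measured genes above the limit in a list of Snail, Zeb and Twist genes with Prrx1. The lists of Pax (0 of 8), T-box (0 of 10) and Lim homeobox genes (0 of 10) had no member above the limit, and their highest were Pax9 (5.86), Tbx3 (7.07) and Lhx2 (6.91).

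Hox genes record position along the body axis. Of 23 measured Hox genes 1, Hoxc8, was above background, at 11.44, against 42.3% of all genes. This depended on the limit. At 4.51, the highest background probe set with a name from GC8 to GC18, 1 HoxA, 4 HoxB, 4 HoxC and 1 HoxD genes passed. Within the HoxC cluster Hoxc5 had 6.47, Hoxc4 4.96, Hoxc12 4.78 and Hoxc9 4.12. In the HoxB cluster the values were Hoxb5 6.59, Hoxb3 5.10, Hoxb13 5.07, Hoxb8 4.65, Hoxb9 3.74, Hoxb4 3.50 and Hoxb7 2.50. The HoxA genes were Hoxa6 5.46, Hoxa7 4.13, Hoxa13 3.46, Hoxa2 3.40 and Hoxa11 2.77, and the HoxD genes Hoxd3 5.07, Hoxd9 4.36, Hoxd10 3.88, Hoxd12 3.79, Hoxd1 3.51 and Hoxd13 3.19. The paralogue of Hoxc8 in the HoxB cluster was thus under the limit, and Hoxc6, Hoxc10 and the remaining Hox genes were not analysed here. Of 24 further homeobox genes (Dlx, Msx, Irx, Meis, Pbx and related families) 6 passed (25%, against 42.3% of all genes). They were Dlx2 (11.86), its neighbour Dlx1 (11.03), the Hox cofactors Pbx3 (10.52), Meis1 (10.16) and Pbx2 (9.44), and Irx5 (9.51).

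Markers of other lineages stayed mostly at background. Over 23 lists, 18 of 234 genes (7.69%) were above 7.57, against 42.3% of all genes, and 13 lists had no member above the limit. No marker passed for endothelial cells (0 of 13; Pecam1 3.73, Cdh5 2.76, Vwf 3.45), T and NK lymphocytes (0 of 15; Cd3e 3.24, Lck 4.42), B lymphocytes (0 of 6), mast cells (0 of 9), the erythroid line (0 of 9), skeletal muscle (0 of 17; Myod1 3.19, Myog 4.48), adipocytes (0 of 8) or hepatocytes (0 of 12). The same held for intestine (0 of 8), lung (0 of 8), kidney (0 of 9), pancreas (0 of 10) and germ line and pluripotency (0 of 6; Pou5f1 3.73, Nanog 4.29).

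For other cell types of skin 1 to 4 genes of a list passed, and each share lay under the 42.3% of all genes. Of 8 melanocyte genes Mitf (9.76), which also has forms in other cells, passed, whereas the pigment genes Tyr (3.01), Tyrp1 (3.98), Mlana (4.56) and Slc45a2 (3.47) did not. Of 14 myeloid and Langerhans genes Cd14 (8.65) passed, with Ptprc at 4.08 and Csf1r at 3.21. Of 13 fibroblast genes Col5a1, Col3a1, Col1a1 and Fbln1 (7.85) passed, while Pdgfra, Dcn (5.37), Lum (3.35), Col1a2 (5.57) and Postn (3.02) did not. Of 9 Merkel and neuroendocrine genes Ncam1 (13.76) and Sox2 passed and Atoh1 (4.45) and Krt20 (3.88) did not. Of 9 Schwann and glial genes Erbb3 passed, with Sox10 at 4.54 and Gfap at 3.85.

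Markers of muscle and bone included genes with clear signals, in lists whose shares lay under the 42.3% of all genes. Smooth muscle genes passed in 3 of 9 cases, Tagln, Smtn (12.43) and Acta2, and Myh11 (5.07), Cnn1 (4.50) and Myocd (3.31) did not. Of 14 cardiac genes the ventricular light chain Myl2 (12.41) and the natriuretic peptide Nppb (11.83) passed, and Myh7 (3.19), Nkx2-5 (3.25) and Tnnt2 (4.41) did not. Of 11 genes of cartilage and bone Runx2 (12.26) passed, and Sp7 (2.80) and Bglap (3.63) did not. Of 16 neuronal genes Map2 (10.27) and Tubb3 (8.11) passed, and Rbfox3 (4.70) and Snap25 (3.52) did not. Of 5 mesothelial genes Msln (7.75) passed.

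**Figure D4:**
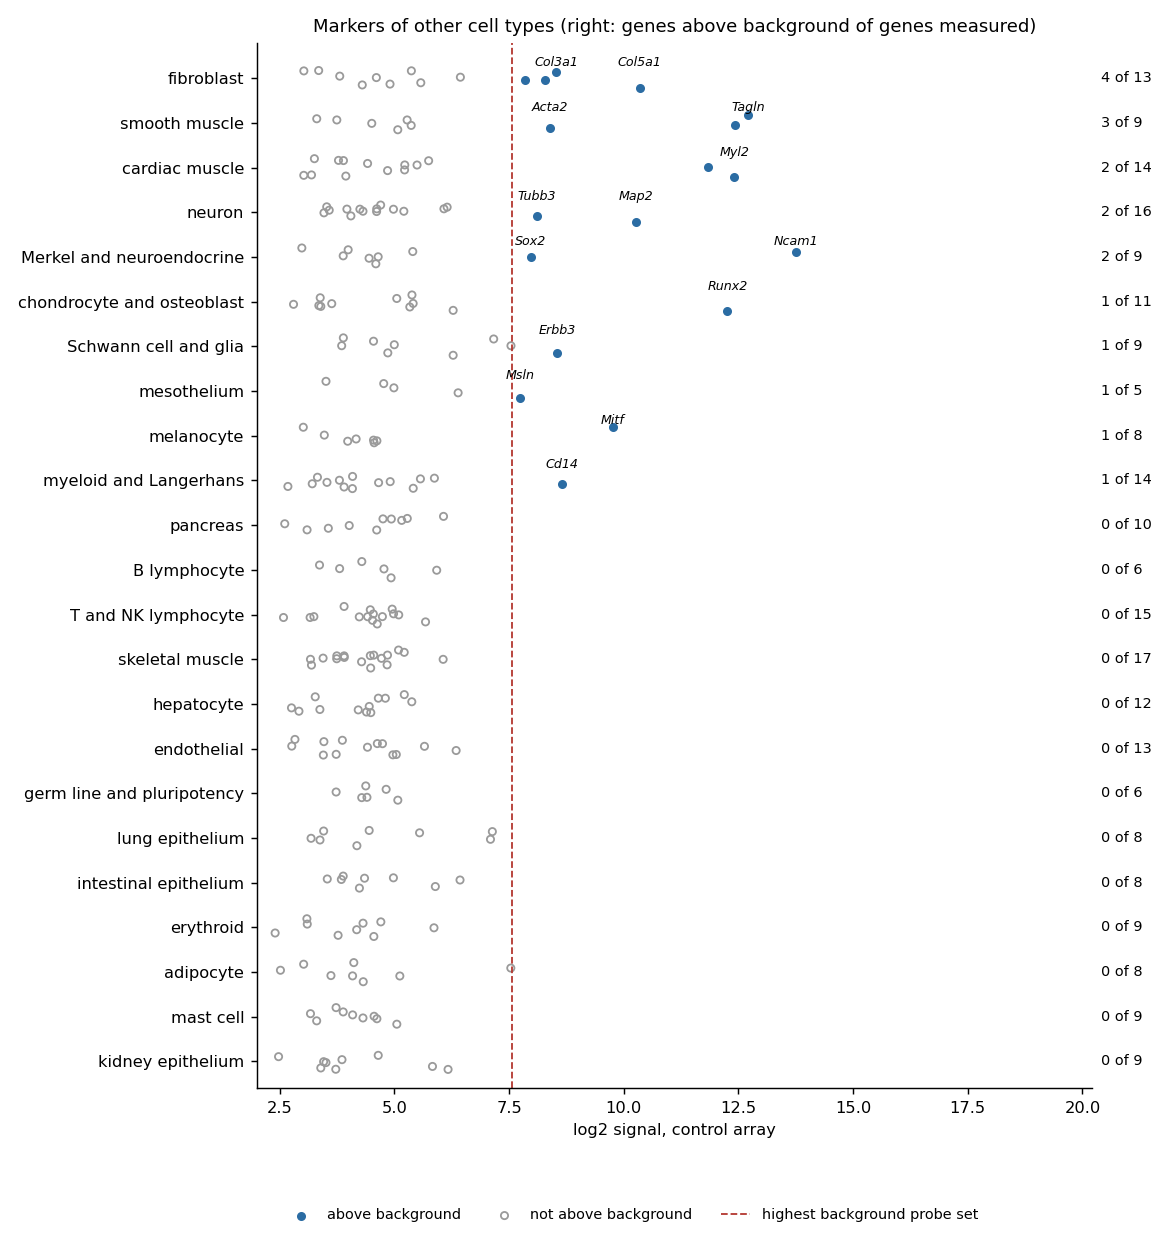
Each point is 1 marker gene of another cell type, plotted by its log2 signal on the control array in rows for 23 cell types, filled and named in part where it lay above the highest background probe set (dashed line, 7.57). The 13 lists at the bottom have no filled point, and the fibroblast list has most, 4 of 13.

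Genes of S phase and mitosis were above background in 32 of 32 measured cases, of 36 listed, against 42.3% of all genes. They ran from E2f1 (8.02) to Mki67 (16.01, rank 132). Other high members were the ribonucleotide reductase subunits Rrm2 (15.47) and Rrm1 (15.10), the replication clamp Pcna (15.22), the spindle protein Tpx2 (15.03) and the mitotic kinase Plk1 (14.76). Among genes of cell cycle control 18 of 21 passed (85.7%, against 42.3% of all genes). Ccnd3 (16.05), Cdk6 (14.93), Myc, Ccnd1 (13.67), Cdkn2a (13.48) and Cdk4 (13.47) were first. Of the 32 and the 18 genes, 31 and 16 were above background on all 3 arrays. Cdkn2a encodes inhibitors of the cell cycle, and its signal was above background together with Cdkn2b (8.84), Cdkn1a (10.28) and Cdkn1b (10.10). Tert (4.63), Mycn (5.46) and Cdkn1c (4.95) were not. Of 17 imprinted and fetal genes 5 passed (29.4%, against 42.3% of all genes): Gnas (13.91), Hmga1 (11.89), Igf2bp2 (9.57), Igf2bp1 (8.90) and Hmga2 (7.88). Igf2 (5.31) and Dlk1 (5.67) did not.

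Glycolysis genes were mostly above background. Of 19 glycolysis genes 16 passed, led by Gapdh (16.83), Ldha (16.80), Pkm (16.53), Eno1 (16.40), Gpi (15.46) and Pgk1 (15.11), and the glucose transporter Slc2a1 had 13.11. Ldhb (4.81) and Eno2 (5.94) were under the limit. S100 proteins and annexins, calcium-binding proteins abundant in epidermis, passed in 14 of 26 cases (53.8%, against 42.3% of all genes), with a list median of 9.82. After S100a11 the highest were Anxa2 (16.70), S100a6 (16.58), Anxa8 (16.39), S100a10 (15.90) and Anxa1 (15.15).

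Promoters of genes above background differed in composition from the rest. RefSeq promoter windows on GRCr8, from 250 bases before to 50 after the annotated start, were at hand for 12435 of the 15037 genes. Genes above background (5406 windows) had a median GC content of 61.7% and 23 CpG dinucleotides, and those not above it (7029 windows) 54.3% and 8. The GC box (GGGCGG, either strand), bound by Sp factors, was in 66.7% of the former and 37% of the latter, against 49.9% of all. The TATA box (TATAAA, either strand) was in 6.03% and 16.1%, against 11.7% of all, and the CCAAT box (CCAAT, either strand) in 38.3% and 37.6%, against 37.9%. The AP-1 site (TGANTCA, the same on both strands) was in 4.98% and 7.48%, against 6.39%. Among the 86 windows of the 100 highest genes a TATA box was in 17.4% and the GC box in 68.6%. An AP-1 site was in 8.14% of them, near the share of all genes. The genes were also cut by signal into 10 equal bins. From the highest to the lowest bin, the median CpG count went from 25 to 5, and the share with a GC box from 71.7% to 29.3%. In the highest bin the TATA box share was 7.54% and the AP-1 share 5.08%, both under those of all genes. The 900 windows of olfactory receptor genes, a part of those not above background, had a median GC content of 35.7% and a GC box in 1.22%. These are descriptions over genes of 1 array. Background signal also varied with the GC number of the probe sets, and its part in the pattern was not tested.

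The windows of Tp63, Thbs1 and Inhba are shown because they belong to the identity regulator and to secreted factors with very high signals, and because they differ in these motifs. For each gene 1 annotated start was taken, and whether these cells use it was not tested. They are the 250 bases before the annotated start on GRCr8, read 5′ to 3′ on the strand of the gene, for Tp63 chr11:88554178-88554427, minus strand, for Thbs1 chr3:125510000-125510249, plus strand, and for Inhba chr17:53804509-53804758, minus strand. Capitals mark a GC box, TATA box, CCAAT box or AP-1 site on either strand.
Tp63: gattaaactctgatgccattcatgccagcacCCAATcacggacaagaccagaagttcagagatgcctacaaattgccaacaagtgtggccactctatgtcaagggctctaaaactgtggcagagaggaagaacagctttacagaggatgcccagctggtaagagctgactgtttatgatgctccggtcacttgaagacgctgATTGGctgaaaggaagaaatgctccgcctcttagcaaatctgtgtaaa
Thbs1: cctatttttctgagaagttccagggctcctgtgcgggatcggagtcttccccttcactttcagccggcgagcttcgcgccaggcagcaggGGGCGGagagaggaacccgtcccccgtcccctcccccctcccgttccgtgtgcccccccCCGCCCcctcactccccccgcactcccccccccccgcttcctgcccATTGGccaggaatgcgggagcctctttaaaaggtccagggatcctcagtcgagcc
Inhba: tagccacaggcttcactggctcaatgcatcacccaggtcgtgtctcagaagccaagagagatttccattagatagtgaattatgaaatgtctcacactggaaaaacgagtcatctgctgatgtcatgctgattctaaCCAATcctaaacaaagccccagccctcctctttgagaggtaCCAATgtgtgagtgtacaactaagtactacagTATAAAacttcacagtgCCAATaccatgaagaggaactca
The Thbs1 window, with 67.6% GC and 16 CpG, held 2 GC boxes and 1 CCAAT box. The Inhba window, with 43.6% GC and 2 CpG, held 1 TATA box and 3 CCAAT boxes, and the Tp63 window (47.2% GC, 4 CpG) held 2 CCAAT boxes. A match describes letters and is no binding site.

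Many ribosomal protein genes shared a feature near their start sites. Their transcripts are known to begin with a run of pyrimidines through which translation is controlled. The count given here takes in runs on either side of the annotated start, so it does not measure transcripts that begin with a run. A run of at least 6 C or T within 10 bases on either side of the annotated start was found on the gene's strand in 41 of 63 ribosomal protein genes with a window (65.1%), against 2095 of 12435 (16.8%) over all genes and 37.2% of the windows of the 100 highest genes. The 5 ribosomal protein genes with the highest signals among those with a window are shown with the run in capitals, as 20 bases of GRCr8 around the start.
Rpl31: aTCCCTCgcgCCTTTCCTTT
Rplp1: cgcatgtgaTCCTTTCCTCa
Rpl21: ttccgccggggcagccatct
Rps2: TCTTTTTCTTCgggaaaaca
Rpl39: taatcgcgTTCTTCCggcct
They lie at chr9:49143101-49143120 on the plus strand for Rpl31, chr8:71290863-71290882 on the minus strand for Rplp1, chr12:13386144-13386163 on the minus strand for Rpl21, chr10:14251838-14251857 on the plus strand for Rps2 and chrX:121195887-121195906 on the minus strand for Rpl39. In 4 of the 5 the window holds such a run, and the window of Rpl21 does not. The run of Rps2 lies before the annotated start but for its last base, and the first run of Rpl31 lies wholly before it.

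**Figure D5:**
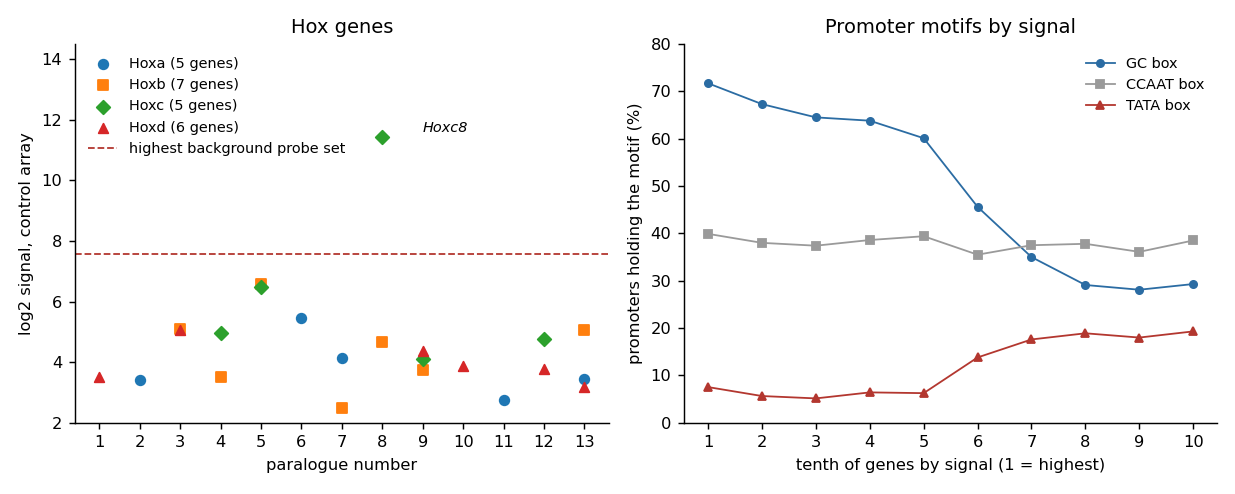
The left panel plots the log2 signal on the control array of 23 Hox genes against their paralogue number, by cluster, with the limit of 7.57 dashed, and Hoxc8 is the gene above it. The right panel plots the share of promoter windows (%) that hold a GC box, a CCAAT box or a TATA box for 10 bins of the genes from the highest (1) to the lowest signal (10). The GC box share goes from 71.7% to 29.3% and the TATA box share from 7.54% to 19.3%.

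A small group of microRNA genes had named clusters as well. Of 11 such genes 5 (45.5%, against 42.3% of all genes) were above background, Mir3542 (10.02), Mir6315 (9.34), Mir3584 (8.56), Mir3102 (7.98) and Mir3577 (7.85), and Mir22 (5.97) and Mir199a2 (2.51), the latter a gene of mesenchyme, were not. Such clusters read precursor or host transcripts, so these values say nothing of the mature microRNAs. The mature RefSeq sequences of 4 of the genes above background are given to identify them, with the seed (bases 2 to 8) in capitals, and no seed is shared.
rno-miR-3542: aAGGCUCUucuuuccuugcag
rno-miR-6315: uCUGGACAggacaggcccugagc
rno-miR-3584-3p: gCCCGCAUcucuggauccc
rno-miR-3584-5p: gGGAGGAGuccaggaggc
rno-miR-3102: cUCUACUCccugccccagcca
On GRCr8 they lie at chr17:9112796-9112816 on the plus strand, chr1:212793253-212793275 on the minus strand, chr1:256727542-256727560 on the minus strand, chr1:256727582-256727599 on the minus strand and chr1:164655877-164655897 on the minus strand, in the order shown.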

How the data were processed

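RNA of 3 FRSK cultures was measured on Affymetrix whole-transcript arrays, 1 array per condition. Per the labels' protocols, RNA was extracted with TriPure and labelled with the WT PLUS kit. The authors deposited log2 signals for all probe sets. RMA, Transcriptome Analysis Console and Affymetrix Expression Console stand in the submitters' processing notes; versions, build and annotation release are not given in the sources used. The precision is limited by the number of arrays.

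Of 24834 probe sets, 1646 controls were kept apart. The platform annotation names 1 gene symbol for 15049 clusters, several for 0 and none for 8139. All 15049 Entrez identifiers were found in RefSeq (GRCr8), and 0 symbols changed. Where a gene had more than 1 probe set (10 genes), its highest control signal counted.

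Genes were ranked by control signal and called above background beyond the highest of 23 background probe sets. Gene lists are literature lists or symbol patterns. Named are the 40 highest genes, the 6 highest members of a list, all Hox genes, and all lineage markers above background, with some members below it as contrast. Other members named beyond this rule, above or below the limit, were chosen after their values were seen. Members and lists were chosen with earlier results of these data known. After the integrin list was seen to catch a centromere gene, its pattern was corrected. The counting was tested on simulated data. Python 3.11.15, numpy 2.4.6, pandas 2.3.3 and matplotlib 3.10.9 were used. Other thresholds, a new quantile normalization, the lowest probe set and calls on all 3 arrays were tried as alternatives.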

Additional observations from a re-analysis of the deposited data

Results flagged for a closer look

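Of the 8139 transcript clusters without a gene symbol, which no result above uses, 2568 (31.6%) lay above the highest background probe set on the control array. The highest had 19.93, and what these clusters measure is not analysed here.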

How the results depend on the processing

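The counts of lineage markers and olfactory receptor genes moved most with the limit. One log2 unit higher, 10 in place of 18 markers of other lineages and 0 in place of 1 olfactory receptor gene passed. At the 95th percentile of the negative controls, 3562 in place of 6363 genes, 8 lineage markers and 0 olfactory receptor genes passed, and at the median of all genes (6.44) and the 99th percentile of the olfactory receptor genes (6.40) 9 and 11 olfactory receptor genes did. At 4.51, the highest background probe set with a name from GC8 to GC18, a limit chosen after the data were seen, 10586 genes, 114 lineage markers, 22 suprabasal genes and 303 olfactory receptor genes passed. Keratinocyte identity stayed between 22 and 26 of 27 under all these limits, and the suprabasal count between 6 and 8 under the others. Quantile normalization (6314 genes), the lowest probe set (6360) and calls on all 3 arrays (6143) left these counts within 1.5 times. Of the other 89 list counts, 32 moved by more than that at the negative control limit, 67 at 4.51 and 0 after quantile normalization. No paired analysis was possible because each condition has 1 array.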

Other observations

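Genes of 3 further groups were looked at after their values had been seen. In the prostanoid and leukotriene pathway 7 of 20 genes (35%) were above background, against 42.3% of all genes. Ptgs2 (17.28) was joined by the constitutive cyclooxygenase Ptgs1 (11.95), the cytosolic prostaglandin E synthase Ptges3 (14.42), the phospholipase Pla2g4a (9.03), the exporter Abcc4 (9.18), Ptges2 (8.96) and the leukotriene A4 hydrolase Lta4h (11.30). The inducible synthase Ptges (6.18), the degrading enzyme Hpgd (4.38) and the lipoxygenases Alox5 (3.15), Alox12 (3.78) and Alox15 (2.70) were not. Of 15 circadian clock genes 8 passed (53.3%, against 42.3% of all genes), with Bhlhe40 at 14.51, Clock at 12.61, Nr1d1 at 11.19 and Bmal1 at 8.04. Cry1 (6.70) and Per3 (6.75) did not. Of the 4 nuclear factor I genes, Nfib (14.99), Nfix (14.83) and Nfic (11.84) passed and Nfia (4.21) did not.

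Further genes, most of them among the 200 highest and some best known from other tissues, were also chosen after their values were seen. The neuronal calcium sensor Vsnl1 had 16.40 (rank 91), the oncomodulin gene Ocm, a parvalbumin of hair cells and tumours, 15.64 (rank 174), and Gpr15lg, which encodes an epithelial ligand of a lymphocyte receptor, 15.53 (rank 191). The membrane protein Prrg4 had 16.83 (rank 55), and the detoxifying enzyme Nqo1 16.90 (rank 51). The metallothionein Mt2A was at rank 200 (15.47). Outside the 200 highest, the opioid precursor Penk had 10.05 (rank 3609).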
